A study of Mus musculus with 8 samples.

Results

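The genes described here had 400 or more counts over the control libraries of quadriceps femoris muscle. They were at 25% of the control level or less in the muscle of mice labelled as skeletal muscle knockouts of Grpel1. They were chosen by a rule on the same values that are described: the raw counts of the 4 control libraries had to sum to 400 or more, and mean knockout CPM (each count divided by the total of its own library and scaled to a common size) had to be at most 25% of the mean control CPM. The genes Amd1 and Amd2 were left out by the rule. Of the 14012 genes in the table, 8712 had 400 or more control counts, and 70 of these passed, which is 0.803%. Because membership was selected on the knockout-to-control ratio, the direction and the size of the loss are given as a description, with no test.

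GRPEL1 is a nucleotide exchange factor for the mitochondrial HSP70 that pulls proteins into the matrix, and the study asked what skeletal muscle does when this import fails. RNA came from the quadriceps femoris, a large thigh muscle, with 1 library per mouse. The knockout group held 4 mice labelled KO (Grpel1 smk -/-), which carried floxed Grpel1 alleles and a Cre recombinase driven by the human skeletal actin promoter and activated with tamoxifen, so that deletion was aimed at myofibres only. The control group held 4 mice labelled WT (Grpel1 flox/flox). Both groups thus carried the floxed alleles, and the labels name no treatment for either. Tamoxifen was started in young mice, and the age at which these muscles were taken is not given for the libraries. Whether the controls also received tamoxifen or carried the Cre is not stated for these libraries. Any effect of the drug or of the Cre therefore cannot be told apart from that of the deletion. In its comparison of body weight the paper calls the Grpel1 flox/flox littermates untreated. Its weight curves also held floxed mice given tamoxifen but lacking the Cre, and wild type Cre mice given tamoxifen. The paper reports that the knockouts lost weight rapidly, unlike the untreated littermates or the wild type mice given the drug. The knockout mice lost weight and muscle, so the libraries compare a wasting muscle with a healthy one.

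Skeletal muscle is built of slow and fast fibres, which use different contractile proteins and different fuels. Fast fibres of the mouse quadriceps rely on glycogen breakdown and glycolysis, on dense membrane systems for sodium, potassium and calcium, and on Z-disc proteins of their own. When a muscle loses its nerve supply, many of its specialised transcripts are known to fall while embryonic isoforms of receptors, channels and contractile proteins return.

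Library totals ran from 16017565 to 20361144 counts, at which 3 counts, the limit that a count of 0 allows, correspond to 0.147 to 0.187 CPM. Scaling factors from the trimmed mean of M values (TMM) were below 1 in every control and above 1 in every knockout library. On library totals the median gene was therefore 0.73 higher in the knockouts on the log2 scale, and on TMM-scaled libraries 0.07 higher. CPM and percentages of control below are on library totals, and log2 fold changes are from edgeR on TMM-scaled libraries. A fall is therefore larger, and a rise smaller, than the CPM ratio implies. The authors' FPKM are per length and carry a scaling of their own, 1.20 to 1.34 times the library-total value in controls and 0.731 to 0.845 times in knockouts, so FPKM ratios between groups lie near the TMM fold changes and below the CPM percentages. Grpel1 itself was at 51.4 to 57.8 CPM among control libraries and at 71.8 to 95.6 CPM among knockout libraries. Its fitted log2 fold change was -0.07 with a standard error of 0.08, and edgeR's quasi-likelihood F test gave an adjusted p (Benjamini-Hochberg) of 0.49. The count over the whole gene therefore does not check which libraries are knockouts, and directions rest on the labels.

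Across the 70 genes the knockout level was between 0.585% and 24.9% of control, with a median of 16.5%. In 18 genes it was under 10%, in 26 it was from 10% to 20%, and in 26 it was from 20% to 25%. Their log2 fold changes ran from -8.03 to -2.67 with a median of -3.27. edgeR called 69 of the 70 lower at an adjusted p under 0.01, where 21.1% of all genes tested were called lower and 23.6% higher (2962 and 3303 genes, against 873 and 8498 on library totals), and the same contrast chose the members, so the count carries no weight as a test. The gene that was not called was Cish. In 65 of the 70 every knockout library lay below every control library on CPM, beside 6.7% of all genes. The exceptions were Igfn1, Chad, Cilp2, B230312C02Rik and Cish.

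Per length, the losses reached from faint to very abundant transcripts. On the authors' FPKM scale the control level ran from 1.93 (Smarca1) to 964 (Mb), with a median of 15.6 against 10.2 in the other 8640 genes with 400 or more control counts. Above 100 FPKM lay 15 members, and 27 lay under 10 FPKM. In the knockouts 28 members were under 1 FPKM. Together the 70 genes took 1.10%, 1.09%, 1.10% and 1.26% of the counts in control replicates 1 to 4, and 0.211%, 0.132%, 0.198% and 0.149% in knockout replicates 1 to 4. These are means of 1.14 ± 0.0839% and 0.172 ± 0.0379% (SD, n = 4 each). Without the 6 most counted members (Pdk4, Mylk4, Mb, Asb2, Smox and Pfkfb3) the shares were 0.488 ± 0.0233% and 0.0849 ± 0.00767%. In bulk muscle, fewer cells of a type and less RNA per cell cannot be told apart, and this holds for every gene below.

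**Figure D1:**
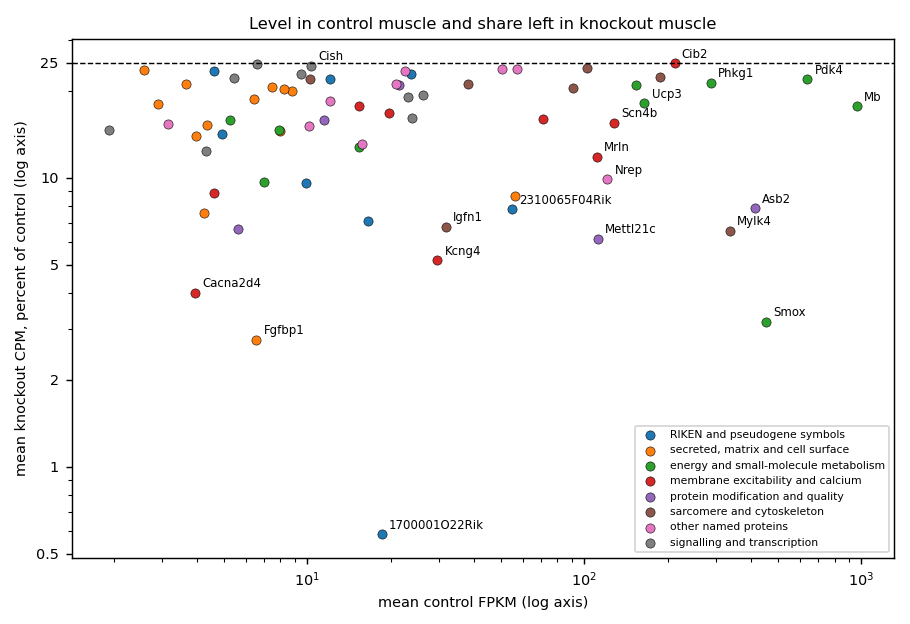
Mean control FPKM (x axis, log scale) against mean knockout CPM as a percentage of mean control CPM (y axis, log scale) for the 70 genes, 1 point per gene coloured by role, with the 25% limit of the rule dashed. Smox, Mylk4 and Asb2 combine a control level above 300 FPKM with under 10% left, and 1700001O22Rik lies far below all others at 0.585%.

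Promoter sequences are shown for 6 members with little left or a high control level, because muscle regulators bind short known motifs close to the start of transcription. Mylk4, Asb2, Kcng4 and Smox were picked because a motif of muscle regulators was found, Asb2 with both of its start sites. Fgfbp1 and Pdk4 were picked because none of these was found. The sequences span the 250 bases before and the 50 bases after a RefSeq start site on GRCm38.p6. They are written 5′ to 3′ on the strand of the gene, with the matched muscle motifs in capitals. Fgfbp1 also holds a TATAAA, which is counted below but was left in lower case.

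Mylk4 (chr13:32783915-32784214, minus strand): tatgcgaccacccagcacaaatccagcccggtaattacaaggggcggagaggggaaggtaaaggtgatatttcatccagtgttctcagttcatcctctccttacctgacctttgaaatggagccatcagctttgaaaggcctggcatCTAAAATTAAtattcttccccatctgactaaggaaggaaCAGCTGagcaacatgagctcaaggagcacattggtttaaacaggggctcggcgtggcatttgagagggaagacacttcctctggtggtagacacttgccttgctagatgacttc
Asb2 (chr12:103338341-103338640, minus strand): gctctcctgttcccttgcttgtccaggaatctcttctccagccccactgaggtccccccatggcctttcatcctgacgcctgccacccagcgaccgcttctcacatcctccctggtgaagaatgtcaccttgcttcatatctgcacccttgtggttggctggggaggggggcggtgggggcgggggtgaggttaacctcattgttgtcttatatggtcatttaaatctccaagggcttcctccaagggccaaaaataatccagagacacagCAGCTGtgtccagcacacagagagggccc
Asb2 (chr12:103355952-103356251, minus strand): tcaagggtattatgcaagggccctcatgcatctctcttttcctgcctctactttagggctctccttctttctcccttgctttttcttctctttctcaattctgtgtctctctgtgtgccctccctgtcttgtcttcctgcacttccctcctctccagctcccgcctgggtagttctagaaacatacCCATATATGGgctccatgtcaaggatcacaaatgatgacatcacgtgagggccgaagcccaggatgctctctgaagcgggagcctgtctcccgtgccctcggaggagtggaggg
Kcng4 (chr8:119635631-119635930, minus strand): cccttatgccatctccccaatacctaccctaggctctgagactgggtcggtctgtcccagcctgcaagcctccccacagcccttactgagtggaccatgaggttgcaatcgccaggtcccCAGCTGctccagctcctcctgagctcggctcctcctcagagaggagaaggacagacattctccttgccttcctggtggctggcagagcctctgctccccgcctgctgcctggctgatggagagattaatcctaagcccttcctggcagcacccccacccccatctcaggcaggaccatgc
Smox (chr2:131491612-131491911, plus strand): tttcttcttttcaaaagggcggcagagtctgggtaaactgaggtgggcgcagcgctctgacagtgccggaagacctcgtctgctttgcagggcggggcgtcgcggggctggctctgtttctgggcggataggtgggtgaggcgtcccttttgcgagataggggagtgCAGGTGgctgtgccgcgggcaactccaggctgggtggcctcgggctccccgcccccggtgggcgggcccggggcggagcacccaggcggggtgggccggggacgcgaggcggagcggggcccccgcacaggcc
Fgfbp1 (chr5:43981750-43982049, minus strand): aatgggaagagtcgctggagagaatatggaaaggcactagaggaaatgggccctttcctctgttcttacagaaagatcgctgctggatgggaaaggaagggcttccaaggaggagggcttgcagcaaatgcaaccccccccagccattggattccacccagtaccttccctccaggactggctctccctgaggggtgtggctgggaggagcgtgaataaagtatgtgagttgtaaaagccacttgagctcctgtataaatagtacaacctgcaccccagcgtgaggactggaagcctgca
Pdk4 (chr6:5496229-5496528, minus strand): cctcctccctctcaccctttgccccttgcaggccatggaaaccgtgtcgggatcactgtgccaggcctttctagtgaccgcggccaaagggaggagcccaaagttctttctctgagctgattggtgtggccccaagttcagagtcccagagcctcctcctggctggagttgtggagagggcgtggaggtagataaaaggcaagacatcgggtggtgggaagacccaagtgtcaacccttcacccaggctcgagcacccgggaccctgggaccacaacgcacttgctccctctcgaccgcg

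The capitals mark a MEF2 site and an E-box CAGCTG in Mylk4, an E-box CAGCTG in the first Asb2 promoter and in Kcng4, a CArG box in the second Asb2 promoter, and in Smox the second E-box form CACCTG, read there on the opposite strand. Promoters were held for 53 of the 70 genes, 73 start sites in all. On either strand CAGCTG, the E-box form bound by MyoD-type factors, occurred in 19 of the 73 (26%), against 15% in promoters of the other genes with 400 or more control counts and 16.3% of all 32851 promoters. CACCTG occurred in 21.9%, 16.9% and 20.2% of the same sets. The TEAD motif CATTCC was in 15.1%, 12% and 14.7%, and TATAAA, which can share bases with a MEF2 site, in 13.7%, 6.91% and 13.6%. MEF2 sites were found in 2 member promoters (2.74%, against 2.0% and 3.19%), CArG boxes of SRF in 3 (4.11%, against 1.37% and 1.63%), and TCAGGTT, the MEF3 motif, in 2 (2.74%, against 3.31% and 4.07%). TCAAGGTCA, bound by estrogen-related receptors, was in 0 of the 73, against 0.195% and 0.423%. These matches describe letters only, several start sites of a gene share sequence, and the difference in share was not tested.

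Energy and small-molecule metabolism held 10 members at 3.18% to 22% of control, none of them overlapping between groups. The rule averaged these same values, so lack of overlap is a description here and in the roles below, beside 6.7% of all genes. Smox (Entrez Gene 228608, chromosome 2 from 131491862 to 131525183, plus strand) encodes spermine oxidase, which turns spermine back to spermidine. It had 1412, 559, 671 and 534 CPM in control replicates 1 to 4 and 26, 23.4, 28.2 and 23.3 CPM in knockout replicates 1 to 4. The control libraries differed from each other by up to 2.65-fold, with replicate 1 highest, whereas the knockouts lay within 1.21-fold. Mean levels were 794 ± 416 and 25.2 ± 2.36 CPM (SD, n = 4 each), so that 3.18% was left, at a log2 fold change of -5.65 ± 0.37 (standard error). The polyamine enzyme Amd1, set aside by the rule, stood at 3.24% of control, and its near copy Amd2 at 2.57%.

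The fuel-switch genes had much wider spread among knockouts. Pdk4 (Entrez Gene 27273, chromosome 6 from 5483351 to 5496278, minus strand) encodes the kinase that shuts pyruvate dehydrogenase when muscle burns fat. Its controls had 1212, 2177, 1853 and 1689 CPM and its knockouts 655, 117, 531 and 222 CPM. Knockout replicates 1 and 3 thus stood above replicates 2 and 4, over a range of 5.59-fold, the widest of any member with 50 or more counts in every knockout. Ucp3, a mitochondrial inner-membrane carrier raised by fatty acids, had 306, 388, 345 and 222 CPM in controls and 88.8, 26.2, 71.6 and 42.0 CPM in knockouts. Both genes thus had their highest knockout value in replicate 1 and their lowest in replicate 2.

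Glycogen and glycolysis were represented by Phkg1, the catalytic subunit of muscle phosphorylase kinase, and by Pfkfb3, which makes the glycolytic activator fructose 2,6-bisphosphate. Phkg1 had 507, 535, 562 and 518 CPM in controls and 123, 99.6, 131 and 99.9 CPM in knockouts, 21.3% of control with little spread in either group. Pfkfb3 had 705, 439.9, 859 and 510.5 CPM in controls and 181, 136, 114 and 94.2 CPM in knockouts, which left 20.9%. Nt5c1a, a cytosolic nucleotidase that removes AMP, had 14.4, 12.2, 14.6 and 11.9 CPM against 1.54, 1.77, 2.11 and 1.40 CPM, with 12.8% left.

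Mb (Entrez Gene 17189, chromosome 15 from 77015487 to 77050668, minus strand), the oxygen-binding myoglobin of muscle fibres, had the highest control level per length, 964 FPKM against 106 FPKM in the knockouts. Its controls had 590.2, 1123, 713 and 1419.7 CPM and its knockouts 168, 153, 172 and 187 CPM, 17.7% of control. Replicates 2 and 4 stood above replicates 1 and 3 among the controls, while the knockouts lay within 1.22-fold. Its span overlaps Apol6 on the other strand. Of the members outside the named set, Bdh1, a mitochondrial ketone body enzyme, stood at 15.9%, Gadl1, a decarboxylase of acidic amino acids, at 14.7% and Cyp4f39, a cytochrome P450, at 9.66%.

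**Figure D2:**
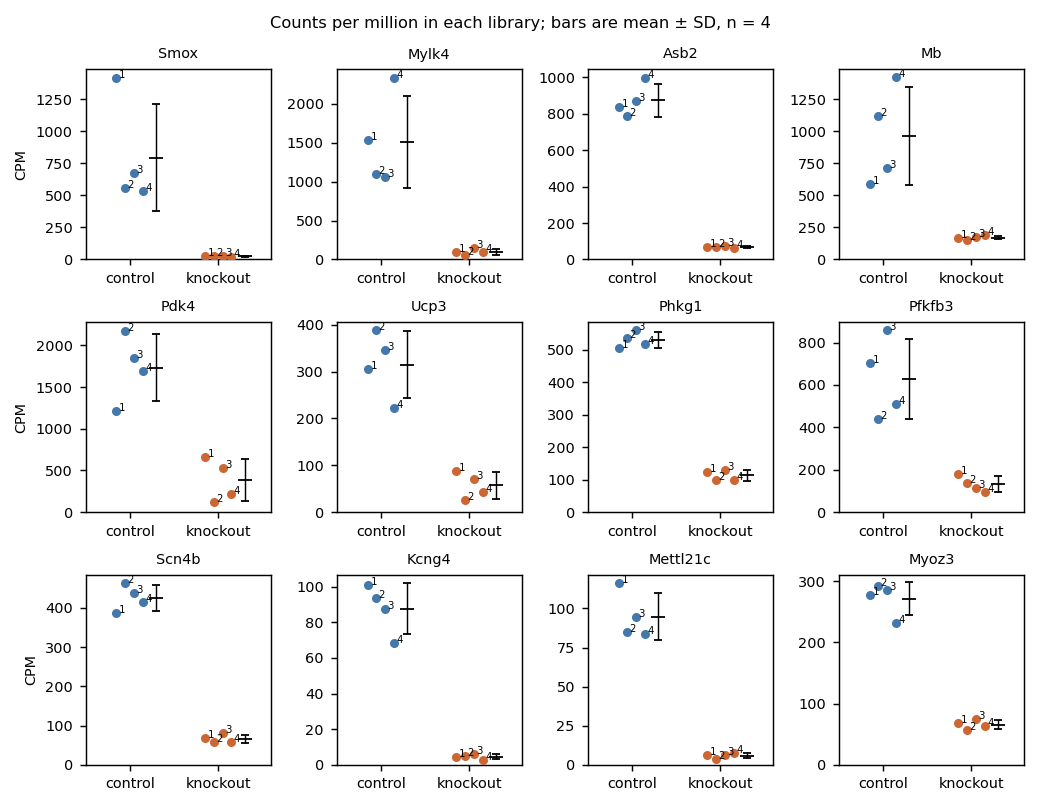
CPM on library totals (y axis, starting at 0) in each library for 12 members, with the replicate number beside each point and bars for mean ± SD (n = 4). Every knockout point lies below every control point in all 12 panels, and the knockouts of Pdk4 run from 117 to 655 CPM while those of Asb2 run from 62.9 to 76.1 CPM.

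The sarcomere and the cytoskeleton held 7 members at 6.56% to 24.1% of control, and 6 of them did not overlap between groups. Mylk4 (Entrez Gene 238564, chromosome 13 from 32700827 to 32781779, minus strand), a kinase of the myosin light chain kinase family, had 1532, 1097, 1058 and 2327 CPM in controls and 94.8, 55.3, 144 and 100.1 CPM in knockouts. Control replicate 4 was the highest and knockout replicate 2 the lowest, and the lowest control stood 7 times or more above the highest knockout. Mean levels were 1503 ± 589.6 and 98.6 ± 36.3 CPM (SD, n = 4 each), with 6.56% left at a log2 fold change of -4.57 ± 0.36 (standard error).

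Myoz3, a calsarcin that ties calcineurin to the Z-disc of fast fibres, had 277, 292, 285 and 232 CPM in controls and 67.7, 56.9, 74.2 and 62.5 CPM in knockouts, which left 24.1%. Ky, a peptidase of the Z-disc region named for the kyphoscoliosis mouse, and Smtnl2, a smoothelin-like protein, gave the tightest knockout values of all. Ky had 79.6, 75.4, 84.1 and 79.8 CPM in knockouts against 339 to 466 CPM in controls. Smtnl2 had 89.5, 80.3, 89.7 and 87.3 CPM in knockouts against 337 to 451 CPM in controls. Eml1, a microtubule-associated protein, stood at 21.1% of control, and Actr3b, an actin-nucleating Arp2/3 subunit, at 22%.

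Igfn1, a protein of the Z-disc that binds KY, differed from these in its controls. It had 139.7, 17.6, 26.9 and 749.8 CPM in control replicates 1 to 4 and 11.8, 22.2, 15.1 and 14.3 CPM in the knockouts. Control replicate 2 lay below knockout replicate 2, so the groups overlapped, and replicate 4 supplied most of the control mean of 234 ± 349 CPM. Its log2 fold change was -4.50 with a standard error of 1.07, the largest error of any member. Without control replicate 4 it no longer met the rule.

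Membrane excitability and calcium handling held 9 members at 4.01% to 24.9% of control, with no overlap in any. Kcng4 (Entrez Gene 66733, chromosome 8 from 119623854 to 119635680, minus strand) is a potassium channel subunit that is silent alone and modifies its partners. It had 101, 93.7, 87.7 and 68.1 CPM in controls and 4.56, 5.05, 5.89 and 2.74 CPM in knockouts. The controls were tight and all far above the knockouts, which left 5.20%, at a log2 fold change of -4.93 ± 0.24 (standard error). Scn4b, the sodium channel beta subunit, had 386, 464, 437 and 414 CPM in controls and 68.1, 58.1, 80.2 and 58.3 CPM in knockouts, 15.6% of control. Mrln encodes myoregulin, a micropeptide that inhibits the calcium pump of the sarcoplasmic reticulum. Its controls had 44.0, 35.2, 42.6 and 32.4 CPM and its knockouts 4.15, 3.17, 5.11 and 5.85 CPM, which left 11.8%.

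Calcium channel auxiliaries also belonged to this group. Cacna2d4, an alpha-2-delta subunit, had 17.4, 8.67, 10.1 and 37.0 CPM in controls and 0.870, 0.852, 0.540 and 0.673 CPM in knockouts, 4.01% of control. Its span overlaps that of Lrtm2, another member, on the opposite strand, and since it is not given whether the counting used strand, reads of the overlap cannot be assigned with certainty. Cacng7, a gamma subunit, stood at 17.7%. Casr, the calcium-sensing receptor, was at 8.87%, Plcd4, a phospholipase C, at 16%, Lrrc38, a subunit of large-conductance potassium channels, at 16.8% and Cib2, a calcium- and integrin-binding protein, at 24.9%.

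Protein modification and quality control held 5 members, the role with the smallest median, 7.85% of control, and no overlap. Asb2 (Entrez Gene 65256, chromosome 12 from 103321142 to 103356001, minus strand), an adaptor of cullin ubiquitin ligases in muscle, had 837, 790.4, 869.7 and 997 CPM in controls and 69.2, 66.2, 76.1 and 62.9 CPM in knockouts. Both groups were tight, within 1.26-fold and 1.21-fold, and 7.85% was left. Its log2 fold change was -4.33 with a standard error of 0.12. Mettl21c, a lysine methyltransferase made in muscle, had 116, 85.0, 94.4 and 83.6 CPM against 6.09, 3.53, 6.09 and 7.60 CPM, 6.15% of control. Htra4, a secreted serine protease, had 9.99, 12.2, 8.88 and 7.39 CPM against 0.921, 0.487, 0.638 and 0.517 CPM, 6.67% of control.

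The heat shock gene Hspa1a had 28.2, 29.1, 29.2 and 13.1 CPM in controls and 2.56, 5.60, 2.5 and 5.17 CPM in knockouts, 15.9% of control. Its near-identical copy Hspa1b, which stood just above the limit at 26.8%, shares most of its sequence, and reads that map to both were left out by the authors, so how the counts divide between them is uncertain. Mss51, a skeletal muscle protein linked to mitochondrial respiration, had 30.2, 12.1, 8.72 and 75.9 CPM in controls and 5.68, 6.27, 6.97 and 7.76 CPM in knockouts. Its lowest control stood only a little above its highest knockout.

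**Figure D3:**
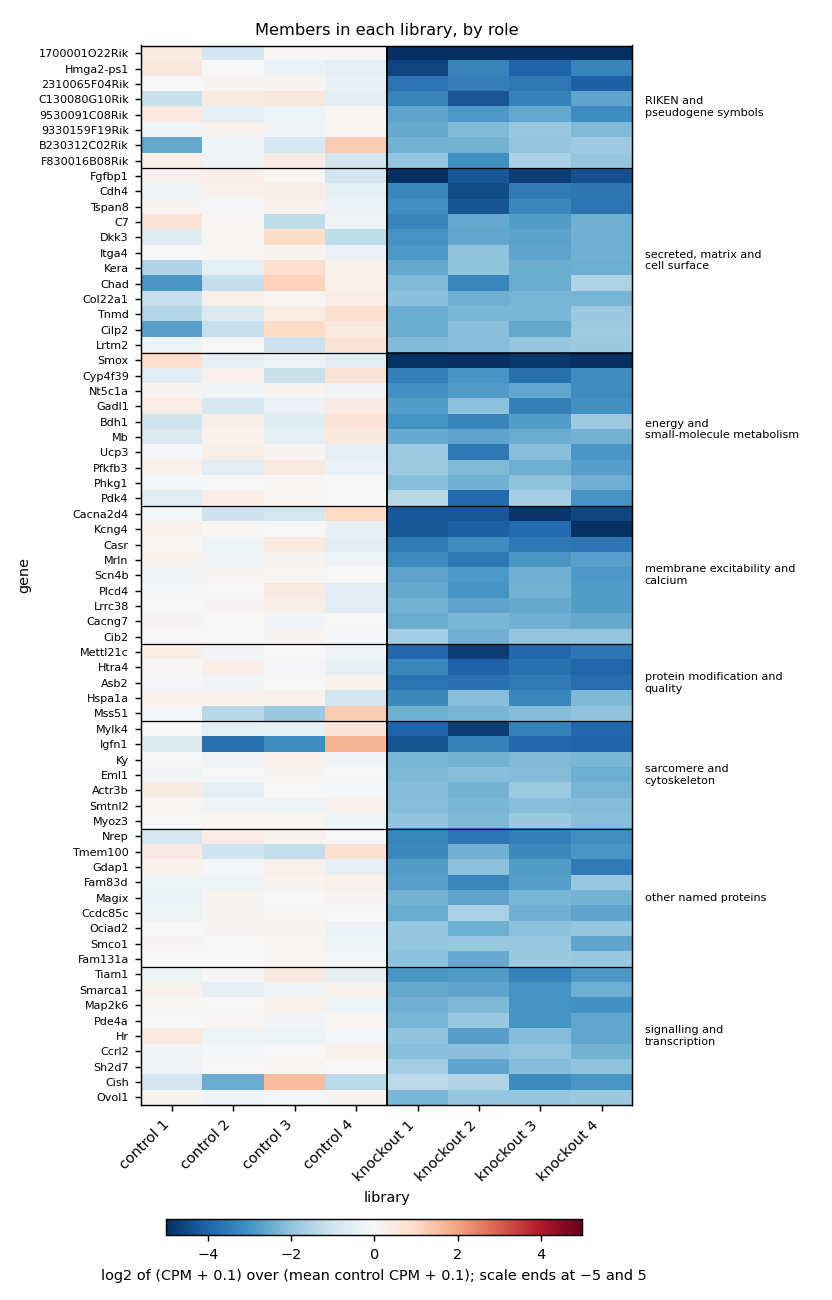
Each row is 1 member, grouped by role, and each column 1 library; colour gives log2 of (CPM + 0.1) over (mean control CPM + 0.1), on library totals. The knockout columns are blue for every gene shown, from pale in Cish to the deepest in 1700001O22Rik and Smox, and the control columns hold isolated blue and red cells in Igfn1, Cish, Chad, Cilp2 and B230312C02Rik.

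Secreted, matrix and cell surface proteins held 13 members at 2.75% to 23.6% of control, and 11 did not overlap. Fgfbp1, which releases fibroblast growth factors from the matrix, had 7.43, 8.08, 6.74 and 3.19 CPM in controls and 0.102, 0.244, 0.147 and 0.207 CPM in knockouts. These were 457 control counts against 13 knockout counts, a ratio of 36.8 with an exact 95% interval from 21.3 to 69.6 that covers counting error only. Cdh4, a cadherin that holds cells together, had 18.6, 26.8, 27.9 and 16.1 CPM against 2.30, 0.913, 1.82 and 1.76 CPM, 7.59% of control. Both genes were low in all knockouts and neither overlapped. Tspan8, a tetraspanin, stood at 8.68%, C7, a terminal complement component, at 14.0%, and Itga4, an integrin alpha chain, at 18.1%. Dkk3, of the dickkopf family of Wnt modulators, stood at 15.2%, and Lrtm2, a leucine-rich repeat membrane protein, at 23.6%.

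Another 4 of these genes belong to tendon and cartilage matrix. Kera, a keratan sulphate proteoglycan, had 3.37, 6.86, 17.6 and 11.3 CPM in controls and 1.59, 2.37, 1.67 and 1.71 CPM in knockouts. Chad, a leucine-rich cartilage protein, had 1.44, 4.89, 25.6 and 13.4 CPM in controls and 2.35, 1.10, 1.96 and 3.67 CPM in knockouts. Cilp2 had 1.69, 5.16, 23.1 and 15.9 CPM in controls and 2.0, 2.62, 1.87 and 3.26 CPM in knockouts. Control replicates 3 and 4 were the highest for each of the genes, and control replicate 1 lay within the knockout range for Chad and below it for Cilp2. Tnmd, the tendon membrane protein tenomodulin, also had its highest values in replicates 3 and 4, with 2.81, 4.68, 10.1 and 13.8 CPM in controls and 1.33 to 2.12 CPM in knockouts. Col22a1, a collagen of the muscle-tendon junction, had 18, 47.5, 43.0 and 52.1 CPM in controls and 7.25 to 9.42 CPM in knockouts, 20.3% of control.

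The 7 tenocyte markers, which include Kera and Tnmd, summed to 118, 154, 464 and 464 CPM in control replicates 1 to 4 and to 81.9 to 146 CPM in the knockouts. Of the 5 tenocyte markers that are not members, 3 (Comp, Fmod and Thbs4) fell in the fit across all genes. The part that tendon attached to the dissected muscle had in these values was not tested. Without control replicates 3 and 4, an alternative chosen after the data were seen, Kera, Chad, Cilp2 and Tnmd no longer met the rule. Neither did B230312C02Rik, Cib2, Cish, Fam83d, Lrtm2, Mss51 and Ovol1, while 59 of the 70 genes still met it. Replicates 3 and 4 were the highest controls of Kera, Chad, Cilp2 and Tnmd, so leaving them out lowers the mean that the rule uses. The loss of these genes is therefore a description and no test.

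**Figure D4:**
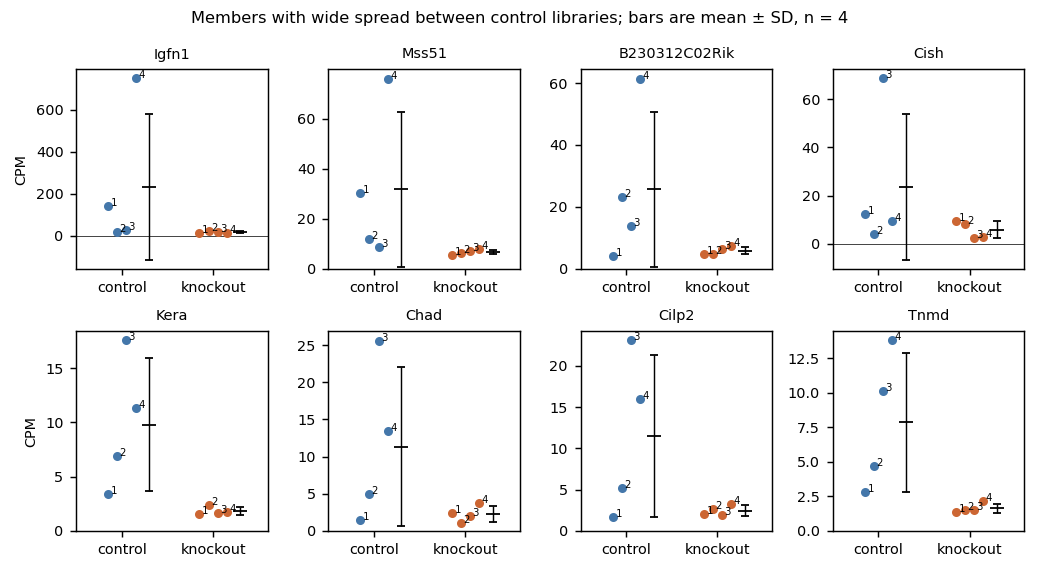
CPM on library totals in each library for 8 members with wide control spread, replicate numbers beside the points and bars for mean ± SD (n = 4). Control replicate 4 stands apart in Igfn1 at 749.8 CPM, control replicate 3 in Cish at 68.6 CPM, and control replicates 3 and 4 are the highest in the 4 tendon genes.

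Signalling and transcription held 9 members at 12.4% to 24.8%, and 8 of them did not overlap. Map2k6, the kinase that activates p38, had 40.1, 37.5, 44.2 and 32.2 CPM in controls and 7.27, 8.04, 4.91 and 4.66 CPM in knockouts. Pde4a, which breaks down cyclic AMP, had 98.8, 108, 91.4 and 107 CPM in controls and 20.8, 26.8, 12.7 and 16.7 CPM in knockouts. Both were separate in every library, at 16.2% and 19% of control. Tiam1, an exchange factor for Rac, stood at 12.4%, the chromatin remodeller Smarca1 at 14.7%, and the nuclear receptor corepressor Hr at 19.4%. Lower down came the chemokine-binding receptor Ccrl2 at 22.1%, Sh2d7, an SH2 domain protein, at 22.8%, and the zinc finger factor Ovol1 at 24.8%.

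Cish, a feedback inhibitor of cytokine and growth hormone signalling, met the rule through 1 control library. It had 12.2, 4.20, 68.6 and 9.41 CPM in controls and 9.42, 8.16, 2.5 and 3.05 CPM in knockouts. Without control replicate 3 it no longer met the rule, and 3 of the control values lay within or close to the knockout range.

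Other named proteins made up 9 members at 9.91% to 23.8% of control, with no overlap. Nrep, a small protein named for neuronal regeneration, had 136, 301, 272 and 229.6 CPM in controls and 24.2, 18.8, 21.7 and 28.2 CPM in knockouts. Gdap1, of the mitochondrial outer membrane, had 34.9, 29.9, 36.9 and 22.4 CPM in controls and 4.45, 7.37, 4.42 and 2.59 CPM in knockouts. Both were low in every knockout library, at 9.91% and 15.2% of control. Tmem100 stood at 13.1%, Fam83d, of the mitotic spindle, at 15.4%, Magix at 18.5%, Ccdc85c at 21.1%, Ociad2 at 23.5%, Smco1 at 23.7% and Fam131a at 23.8%.

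Genes with RIKEN or pseudogene symbols made up the last 8 members, and 1 of them showed the deepest loss. 1700001O22Rik (Entrez Gene 73598, chromosome 2 from 30795563 to 30803664, minus strand) was counted 513, 223, 450 and 460 times in the control libraries and 3, 3, 1 and 3 times in the knockout libraries. Each knockout was thus at or below the 3 counts that a count of 0 allows, and the control with the fewest had 223 counts. The ratio of the summed counts, 1646 against 10 and corrected for library totals, was 172 with an exact 95% interval from 93.4 to 359.7 that covers counting error only.

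The long noncoding RNA 2310065F04Rik (chromosome 11 from 67112461 to 67120080, minus strand) had 118, 129, 129.8 and 90.1 CPM in controls and 9.06, 10.9, 9.72 and 6.78 CPM in knockouts, 7.81% of control. It lies 50.9 kb from Myh2, 80.0 kb from Myh1 and 117.7 kb from Myh4, the fast myosin heavy chain genes, which are on the opposite strand. Myh4, the heavy chain of the fastest fibres, fell from 17375 to 3347 FPKM (log2 fold change -2.34, standard error 0.22, adjusted p = 1.2e-05 by edgeR). Myh1 rose from 1216 to 2619.7 FPKM (log2 fold change 1.15, standard error 0.23, adjusted p = 0.0017 by edgeR), while Myh2 was at 159 and 179 FPKM and did not pass (adjusted p = 0.70 by edgeR). The loss at the noncoding gene thus stood beside a fall of 1 neighbour and a rise of another.

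Hmga2-ps1, a transcribed pseudogene, had 29, 19.3, 15.8 and 13.9 CPM against 0.717, 1.83, 1.13 and 1.86 CPM, 7.09% of control. Reads shared with its parent gene make its count uncertain, and its span lies on that of Sdccag8. C130080G10Rik stood at 9.61%, 9530091C08Rik at 14.2%, 9330159F19Rik at 22% and F830016B08Rik at 23.5%. The span of 9530091C08Rik, which has 1 exon, overlaps Rora on the same strand, so reads of the overlap cannot be assigned with certainty. Rora itself had a log2 fold change of -0.95. B230312C02Rik, which overlaps the host gene of a miRNA on the other strand, had 4.25, 23.1, 13.8 and 61.4 CPM in controls and 4.86 to 7.29 CPM in knockouts, so that control replicate 1 lay below all knockouts.

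The spread among controls uses the values that the rule averaged, and a single high control can bring a gene under its limit, so it is given as a description. The highest control was a median of 1.80 times the lowest, against 1.21 times in the other genes with 400 or more control counts. It was under 2 times in 40 members and 4 times or more in 12. The highest control was replicate 3 for 27 members, replicate 4 for 19 and replicates 1 and 2 for 12 each. The lowest knockout was replicate 2 for 30 members. Members were not longer than other genes, with a median summed exon width of 2716.5 bases against 3140 bases and a median of 7 exons against 10. They lay on 19 chromosomes, with 9 on chromosome 9 and 8 on chromosome 2, and GENCODE called 65 of the 68 it matched protein-coding. The closest neighbours among the members were Cacna2d4 and Lrtm2, which overlap, and Cib2 and Sh2d7, which lie 331 bases apart.

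At the limits of the rule the values ran on without a break. Just inside the 25% limit stood Cib2 at 24.9%, Ovol1 at 24.8% and Cish at 24.5%. Just outside it stood 2310015D24Rik at 25.5%, Wfdc1 at 26.2% and Ppm1l at 26.4%. The members with the fewest control counts were Fam83d, Smarca1 and Fgfbp1. Ccdc146, Odf3l2, Rmi2, Snph and Tmem132b, all at or under 11.2% of control, missed the limit of 400 control counts with 343 to 366 counts.

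Other genes of muscle pathways were taken from 15 lists, some of which hold no member. On these lists 323 genes that are not members were measured. Of these, 170 fell and 62 rose in the knockouts by edgeR at an adjusted p under 0.01, beside 21.1% and 23.6% of all genes. The 170 include Amd1 and Amd2, which were left out of the members by name only. On library totals, where the median gene is 0.73 higher, the lists with their members gave 116 lower and 123 higher, against 181 and 62 with TMM scaling. Among the lists that hold members, fast fibre genes had 15 of 17 other genes lower and 1 higher, with a median log2 fold change of -1.66. Actn3, the fast-fibre alpha-actinin, went from 5261 to 1020.5 FPKM (log2 fold change -2.33, standard error 0.15) and Pvalb, the calcium buffer parvalbumin, from 12637 to 2499.9 FPKM (-2.30).

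Glycolysis and glycogen genes had 20 of 27 other genes lower and 4 higher, with a median of -1.36. Phka1 and Phkb, the other subunits of phosphorylase kinase in the table, had log2 fold changes of -2.52 and -1.99, and Pygm, the muscle glycogen phosphorylase that the kinase activates, -2.19. Gbe1, the glycogen branching enzyme, rose by 2.14. Calcium release and reuptake genes had 17 of 22 lower and 4 higher, among them Casq1, which binds calcium in fast fibres, at -1.78 and Sln, the inhibitor sarcolipin, at 7.33. Ion channels and pumps had 15 of 24 lower and 5 higher. In that list the sodium channel Scn4a, which the beta subunit of Scn4b accompanies, had a log2 fold change of -1.73.

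Ubiquitin ligase adaptors had 21 of 32 other genes lower and 2 higher, with a median of -0.94. Within the Asb family the next lowest after Asb2 were Asb4 at -2.34 and Asb18 at -2.28, both far from the -4.33 of Asb2. Z-disc genes were split, with 19 of 35 lower and 7 higher. Mybpc2 and Actn3 were at -2.33 each, while Ankrd1, a stress-induced Z-disc protein, was at 5.69 and Myoz2, the calsarcin of slow fibres, at 3.18, against -2.72 for the member Myoz3. Creatine and adenine nucleotide genes had 6 of 9 lower and 2 higher. Fatty acid genes had 12 of 30 lower and 2 higher with a median of -0.35, and Cpt1b, which admits fatty acids to mitochondria, was at -0.77. In the list of polyamine, carnosine and branched-chain genes, 6 of 16 were lower, 3 higher. The 6 of that list include Amd1 and Amd2, which met the terms of the rule and were left out of it by name. There Sms, spermine synthase, was at -1.94, Odc1, ornithine decarboxylase, at -0.87, and Srm, spermidine synthase, at 1.84.

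Other lists held no member. Slow fibre genes had 9 of 13 higher, with a median log2 fold change of 2.76. The list of neuromuscular junction and denervation genes had 13 of 20 higher and 2 lower, among them Chrng, the embryonic acetylcholine receptor subunit, which had 0 to 0.266 CPM in controls and 27.9 to 56.8 CPM in knockouts. Myogenic and fibre type factors had 18 of 30 lower and 3 higher, PGC-1 and nuclear receptor genes 11 of 22 lower and 2 higher, hormone receptor and growth genes 11 of 26 lower and 6 higher, and clock genes 6 lower and 6 higher of 17. Whole-list median log2 fold changes turned from negative with TMM scaling to positive on library totals for fatty acid genes (-0.41 and 0.26), PGC-1 genes (-0.38 and 0.29), transcription factors (-0.53 and 0.14), hormone genes (-0.25 and 0.41), clock genes (-0.28 and 0.39) and polyamine genes (-0.25 and 0.42). Fast fibre genes were at -1.03 and glycolysis genes at -0.78 on library totals.

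**Figure D5:**
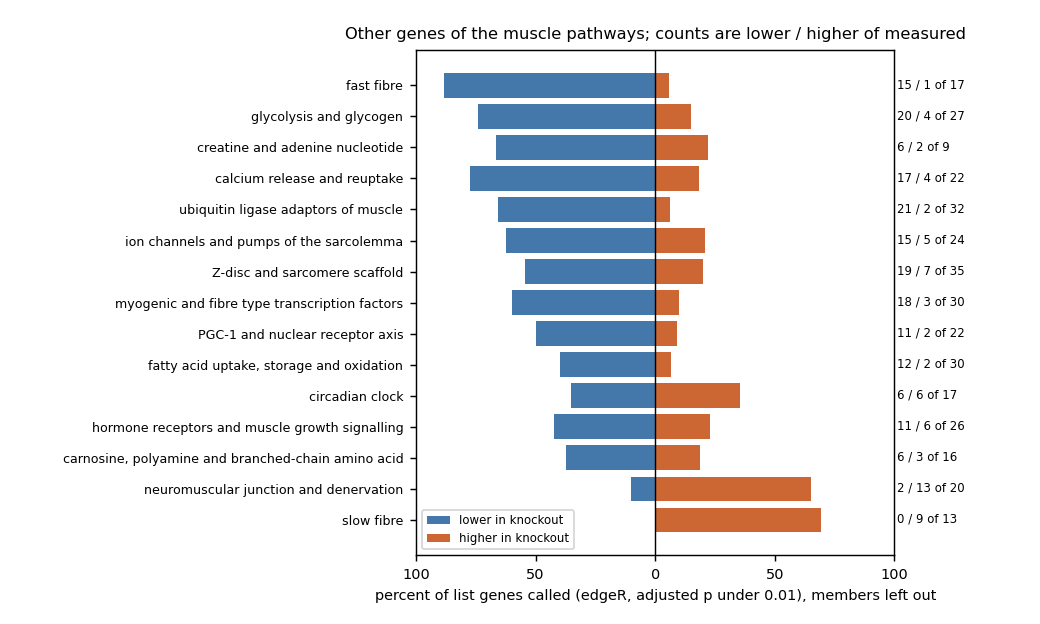
For each of 15 lists, the percentage of measured genes called lower (left) and higher (right) in the knockouts by edgeR at an adjusted p under 0.01, with the members left out and the counts at the right. Fast fibre genes reach 15 of 17 lower, and slow fibre genes reach 9 of 13 higher. Amd1 and Amd2, left out of the members by name, are counted in the polyamine list.

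Markers of the cell types that the muscle could hold moved unevenly. Myofibre markers summed to 155907 to 179705 CPM in controls and 75193 to 93829 CPM in knockouts, with 6 of 7 lower and 1 higher. The 7 include the member Mb, and of the 6 others 5 were lower and 1 higher. The median log2 fold change of the 7 was -1.53 with TMM scaling and -0.86 on library totals. Adipocyte markers summed to 25.2 to 713 CPM in controls and 468 to 2102 CPM in knockouts, with 1 of 9 higher. Macrophage and leukocyte markers summed to 59.8 to 166 and 219 to 446 CPM, with 1 of 10 higher. Endothelial markers had 6 of 10 lower, but their sums overlapped (312 to 483 CPM in controls and 376 to 423 CPM in knockouts), and their median log2 fold change was -0.65 with TMM scaling and 0.02 on library totals. Smooth muscle and pericyte markers had 4 of 8 lower, with overlapping sums of 344 to 599.6 and 516 to 618 CPM and medians of -0.52 and 0.14. Fibroblast markers had 5 of 9 lower, with sums of 1392 to 2247 and 876 to 1459 CPM and medians of -0.79 and -0.13. Satellite cell markers had 2 of 6 lower and 3 higher. Their sums were 27.9 to 31.5 CPM in controls and 54.0 to 86.8 CPM in knockouts. Among Schwann cell and erythrocyte markers none was called, and the sums of each list overlapped between groups. Medians with TMM scaling and on library totals were 0.94 and 1.59 for adipocyte and 0.81 and 1.49 for macrophage and leukocyte markers. For satellite cell markers they were 0.40 and 1.07. No marker was at 0 in all libraries, and the part of changed cell numbers in the members' levels was not tested.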

How the data were processed

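RNA of quadriceps femoris from 4 mice labelled Grpel1 knockout and 4 labelled Grpel1 flox/flox control was sequenced by the authors, with 1 library per mouse. The deposited gene counts come from the authors' own pipeline: bcl2fastq 2.20.0.422, trimming with cutadapt, alignment to GRCm38 by STAR 2.5.4b, then counting on exons in Rsubread. Read pairs that were duplicates, chimeras, mapped to several places or mapped poorly were dropped. Genes with few reads in total had been left out, and the lowest total in the table was 51. The annotation release and the use of strand in the counting are not given in the sources used here. FPKM values were computed by the authors from these counts and the summed exon width with a further scaling per library, and serve here mainly to compare levels between genes. The deposited exon widths and exon numbers were used as given, and the columns with the authors' DESeq2 1.32.0 output (fold changes, p-values and mean signal) were not used.

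CPM was taken on library totals. All 14012 genes were fitted with edgeR 4.0.16 (glmQLFit and glmQLFTest, TMM scaling, group as the only term) in R 4.3.3, with Benjamini-Hochberg adjustment at 0.01, and the standard error is the log2 fold change over the square root of F. The procedure was tested on simulated data first. The members and the gene lists were chosen with earlier results of these data known. Genes printed with values in every library followed a rule on the 12 highest control FPKM, the 12 smallest ratios, the 4 widest and the 4 narrowest knockout ranges among members with 50 or more counts in each knockout library, the limits, and up to 4 members per list. Kera, Chad, Cilp2, Tnmd, Col22a1, Mss51, Map2k6, Pde4a, Hspa1a and B230312C02Rik, the members given only by a percentage, and the non-members named from the lists were picked after their values were seen. Replicates were separate mice, and replicate pairs differed by far more than sampling noise (chi-square over degrees of freedom, 18.1 to 43.6).

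Alternatives covered scaling, DESeq2 1.42.0, filters, a block on replicate number, leaving out each library, the terms of the rule and, added later, leaving out control replicates 3 and 4. Promoters are RefSeq sequences on GRCm38.p6. Values of 1 member are counted in the totals but not reported here by name. Intervals and count limits cover counting error only.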

Additional observations from a re-analysis of the deposited data

Results flagged for a closer look

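In each gene reported the control group and the knockout group were examined for a library whose gap to its nearest neighbour was too large by Dixon's test for 4 samples. Of 138 groups, 8 were flagged, and chance flags about 1 in 20 groups. Among controls, replicate 1 was high for Smox at 1412 CPM (others 534 to 671) and for Hr at 158 CPM (others 93.4 to 104), replicate 3 was high for Cish at 68.6 CPM (others 4.20 to 12.2), replicate 4 was high for Igfn1 at 749.8 CPM (others 17.6 to 139.7), and replicate 4 was low for Hspa1a at 13.1 CPM (others 28.2 to 29.2). Among knockouts, replicate 2 was high for Kera at 2.37 CPM (others 1.59 to 1.71), replicate 3 was low for Tiam1 at 2.41 CPM (others 3.43 to 3.59), and replicate 4 was low for Smco1 at 7.86 CPM (others 12.9 to 13.4).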

How the results depend on the processing

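The number of members depended on the terms of the rule: 70 as stated, 165 on TMM-scaled CPM (all 70 among them), 26 when the highest knockout had to be at most 25% of the lowest control, and 121 with no limit on control counts. It was 66 with medians, 55 at 1000 control counts, 65 without control replicates 3 and 4, and 65 to 73 with each library left out. Without control replicate 4, B230312C02Rik, Fam83d, Igfn1, Lrtm2, Mss51, Ovol1 and Tnmd were lost, and without knockout replicate 2, Cib2, F830016B08Rik, Fam131a, Myoz3, Ociad2, Pdk4 and Sh2d7. On library totals alone edgeR called 873 genes lower and 8498 higher, 116 and 123 of the list genes, and the members' median log2 fold change was -2.60 (-3.27 with TMM). Without the 20 most abundant genes of each library the members took 1.84% of control and 0.219% of knockout counts. With each library left out, 65 to 70 members were called lower, all genes gave 2600 to 2937 lower and 2596 to 3005 higher, the lists 170 to 184 lower and 52 to 57 higher, the median was -3.28 to -3.18, and the shares were 1.10% to 1.15% and 0.160% to 0.186%. Among these counts, medians and shares, 103 of the 113 values stayed within 1.5 times the stated count or within the spread between libraries. The balance of calls over all genes depended on the scaling, with 2962 lower and 3303 higher by TMM, 3213 and 3005 with RLE size factors and 3480 and 3251 with DESeq2.

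Same-numbered deviations from the group means correlated at 0.12, 0.0031, 0.42 and 0.14. The labels name nothing that same-numbered mice share, so the mice were not treated as pairs. All correlations were positive, with 1 of the 4 under 0.1. Libraries with different numbers were not correlated for comparison, so the values cannot decide whether the numbers mark pairs. With the replicate number as a block, 68 members were called lower, 2908 genes were lower and 3215 higher, the lists gave 183 and 63, and the median was -3.22.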
